A study of Mus musculus with 12 samples.

Results

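The BCL2 family sets whether a cell starts the mitochondrial path of apoptosis, and 10 of its genes were followed here among the 21179 genes named on the array. They are the survival members Bcl2, Bcl2l1 and Mcl1, the effectors Bax and Bak1, and the BH3-only members Bcl2l11, Bid, Bad, Bbc3 and Pmaip1. All probes that the array's tables assign to these genes by symbol or accession were taken, which gave 19 probes. Of the 10 genes, 4 had 1 probe and 6 had several. All 10 passed the filter on dim signals.

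RNA came from mouse embryonic stem (ES) cells, a culture of pluripotent cells derived from the blastocyst. One group of 3 samples was undifferentiated, and the other group of 3 samples had spent 3 days in retinoic acid, a vitamin A derivative that binds nuclear receptors and drives ES cells out of pluripotency. No genetic change is given for either group, and the ES line, its medium, the use of feeder cells and the dose of retinoic acid are not given in the sources used here. Each sample was hybridised to 2 technical Cy3 arrays, which were averaged, so the comparison is of 3 against 3 samples. The samples are labelled as biological replicates without mention of separate cultures, and p-values therefore reflect only how far these samples differ, which may be technical.

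In the mitochondrial path, the survival proteins hold the effectors in check at the outer membrane of the mitochondrion. BH3-only proteins report stress or loss of growth signals by binding the survival proteins or the effectors, and freed effectors open the membrane so that cytochrome c leaves and caspases are activated. Undifferentiated ES cells are known to be prone to apoptosis after DNA damage. Much of the control of the family acts on the proteins, by phosphorylation, cleavage and turnover, which an RNA array does not measure.

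Values are log2 of the quantile-normalized net intensity plus 50, a scale on which changes of dim genes are understated. Levels of different probes are not compared with each other, because each probe has its own brightness. A gene was called when limma's adjusted p was under 0.05 over all 15326 genes tested. Array medians ran from 37.4 to 96.6 net intensity units, and technical arrays of a sample correlated at 0.990 to 0.998 over probes. The background limit of an array, set from its negative controls, ran from 8.5 to 51.6 units. The arrays of undifferentiated replicate 2 had 80.0% and 85.0% of probes above their limits, against 53.8% to 68.0% on the other arrays. Of the 9 pluripotency markers tested, 8 fell after retinoic acid (median log2 difference -4.10, summed intensity 122296 to 168463 against 34499.5 to 44187.3). The sum understates the fall of these 8. Most of the treated sum was Dppa5a, the 1 marker not called, which went from 15.37 to 15.05 on the log2 scale. Of the 8 retinoic acid response genes, 6 rose, and Rarb and Stra6 (both -0.27) did not pass the test. The second probe of Rarb was called higher in the fit over probes, at 0.94. Markers of other cells also moved with the treatment, not all one way. Of 8 feeder fibroblast markers tested, 5 rose, 1 fell (Thy1, -2.07) and 2 did not pass the test (summed intensity 1288 to 1879 against 15567 to 16387). Postn and Lum were too dim to test. The largest of the rises was that of Tagln (5.25), which also made up most of the treated sum. Of 7 trophoblast markers, 4 rose, among them Krt8 and Krt18 (4.65 and 4.78), 1 fell (Tfap2c, -3.08) and 2 did not pass the test (4317 to 6028 against 48125 to 56105). Of 7 extraembryonic endoderm markers 4 rose (845 to 1671 against 5495 to 6031) and of 7 neural markers 2 rose (2626 to 3496 against 3789 to 4158), with none called lower in either list. Their part in the results on the BCL2 family was not tested.

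Of the 10 members, Bcl2l11 rose and Pmaip1 fell after retinoic acid, and the other 8 did not pass the test. Both genes that changed encode BH3-only proteins, and they moved in opposite directions. Over all genes tested 18.7% were called higher and 13.6% lower, so that 1 member in each direction among 10 is no excess over the rest of the array. The groups of 3 did not overlap for 4 members, against 46.6% of all genes. The median log2 difference was -0.03 over the 10 members and 0.0035 over all genes tested. In such bulk RNA, fewer cells carrying a transcript and less transcript per cell cannot be told apart.

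**Figure D1:**
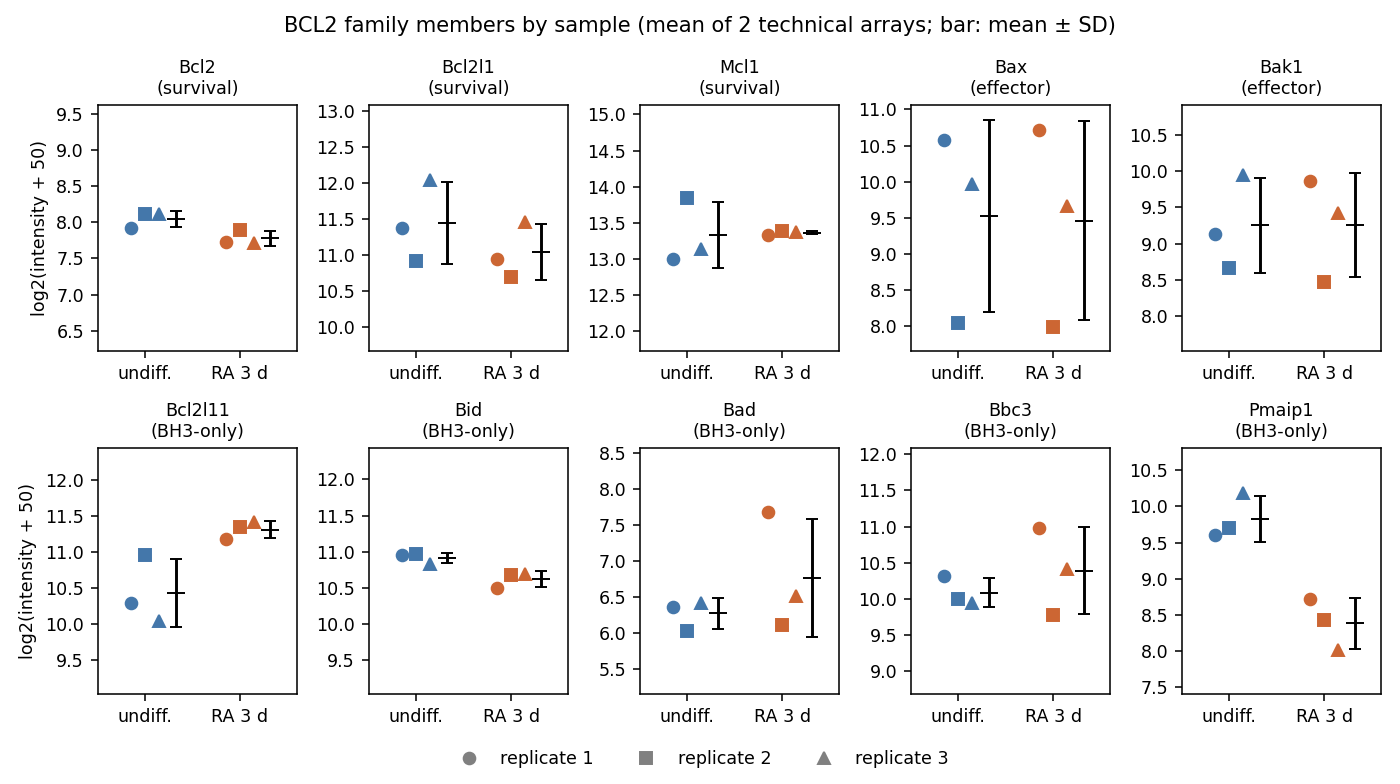
Log2(intensity + 50) of the 10 members (brightest probe of each gene) in the 3 undifferentiated samples (blue) and the 3 samples after 3 days in retinoic acid (orange), with the mean and SD of each group beside the points and the same span of the vertical axis in every panel. The groups of Bcl2, Bcl2l11, Bid and Pmaip1 do not overlap, and the replicate 2 samples of Bax lie far below the other 2 samples in both groups.

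The survival members guard the outer mitochondrial membrane against Bax and Bak1. None of the 3 passed the test, and their median log2 difference was -0.27. That sign depends on the probe: with the mean of each gene's probes Bcl2, Bcl2l1 and Mcl1 differed by 0.08, 0.48 and 0.22, and with the second brightest probe by 0.40, 1.18 and 0.41, all above 0 and none called. Bcl2, the founding member, measured 7.92, 8.11 and 8.12 in the undifferentiated samples and 7.73, 7.90 and 7.71 after retinoic acid. All 3 treated samples lay below all 3 undifferentiated ones, by a margin that was small next to the error. The difference was -0.27 ± 0.15 (SE, 95% interval -0.61 to 0.07, limma adjusted p = 0.208). The Bcl2 probe read 161 to 230 intensity units, a level at which the added 50 shrinks a difference. With 1 added in place of 50 the difference was -0.34, without a call.

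Bcl2l1 encodes BCL-XL, a widely expressed survival protein. It measured 11.38, 10.91 and 12.04 in the undifferentiated samples and 10.95, 10.70 and 11.46 after retinoic acid. The ranges overlapped, because the undifferentiated samples alone spanned more than 1 log2 unit. The difference was -0.41 ± 0.31 (95% interval -1.14 to 0.32, limma adjusted p = 0.372).

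Mcl1 encodes a survival protein that turns over within a short time and binds the BH3-only protein NOXA, the product of Pmaip1. It measured 13.00, 13.85 and 13.14 in the undifferentiated samples and 13.34, 13.38 and 13.38 after retinoic acid. The 3 treated samples nearly coincided and lay inside the range of the undifferentiated samples. The difference was 0.04 ± 0.23 (95% interval -0.50 to 0.57, limma adjusted p = 0.928), and it turned to -0.37 and -0.33 when arrays were scaled to the 75th percentile or to the median instead.

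The effectors Bax and Bak1 encode the proteins that form pores in the mitochondrial membrane. Neither passed the test, and their group means were close, but their samples were not. Bax measured 10.58, 8.04 and 9.96 in the undifferentiated samples and 10.72, 7.99 and 9.66 after retinoic acid. The replicate 2 sample was the lowest of both groups, by 1.93 and 1.67 log2 units below the next sample. The SD within groups was 1.35, which was at the 99.7th percentile of all genes tested. The difference of the means was -0.07 ± 0.80 (95% interval -1.93 to 1.79, limma adjusted p = 0.959), an interval that holds both a rise and a fall of well over 1 log2 unit. That interval takes no account of replicate numbers. Samples of the same number differed by only 0.14, -0.05 and -0.31. With a replicate block the difference was still -0.07 (limma adjusted p = 0.775).

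The technical arrays of a sample were close to each other for the Bax probe (SD 0.14). Replicate 2 was low in both groups for other transcripts as well: Rn18s, the 18S ribosomal RNA, measured 13.62, 11.72 and 13.83 in the undifferentiated samples and 13.58, 11.68 and 14.19 after retinoic acid. In 33 genes, Bax among them, replicate 2 lay at least 1 log2 unit below both other samples in each group, against 0 genes for replicate 1 and 0 for replicate 3. The part of this pattern in the Bax values was not tested.

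Bak1, the partner of Bax that sits in the mitochondrial membrane of resting cells, measured 9.14, 8.66 and 9.95 in the undifferentiated samples and 9.87, 8.47 and 9.42 after retinoic acid. The groups covered almost the same range, with replicate 2 lowest in both. The difference was 0.0048 ± 0.42 (95% interval -0.98 to 0.98, limma adjusted p = 0.995). Its SD within groups was at the 97.0th percentile of all genes tested, and its sign was the other one in 9 of 23 alternative settings, so that no direction can be given for it.

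The BH3-only members carry the signals that start the process, and both calls of the family lie here: of 5 genes 1 rose, 1 fell and 3 did not pass the test. Among all genes tested the shares were 18.7% higher and 13.6% lower, so these counts are not read as a trait of the BH3-only members. Pmaip1 encodes NOXA, the BH3-only protein that binds MCL1 and is known as a p53 target. It measured 9.60, 9.70 and 10.19 in the undifferentiated samples and 8.72, 8.42 and 8.02 after retinoic acid. Every treated sample lay below every undifferentiated one, and the gap between the groups was larger than the range within either. Pmaip1 fell by 1.44 ± 0.24 on the log2 scale (95% interval -1.995 to -0.89, a 2.72-fold difference, limma adjusted p = 0.00287). The call was kept in all 23 alternative settings, with differences from -1.61 to -1.26 and adjusted p from 0.0018 to 0.0197. The array has 1 probe for Pmaip1, so no other probe bears on it.

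Bcl2l11 encodes BIM, a BH3-only protein that binds all the survival proteins and is induced when growth factors are withdrawn. It measured 10.29, 10.95 and 10.05 in the undifferentiated samples and 11.17, 11.34 and 11.41 after retinoic acid. The 3 treated samples were close together and all above the undifferentiated ones, of which replicate 2 came nearest. Bcl2l11 rose by 0.88 ± 0.24 on the log2 scale (95% interval 0.32 to 1.44, a 1.84-fold difference, limma adjusted p = 0.0266).

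This call was less firm than that of Pmaip1. It was lost when arrays were scaled to the 75th percentile (0.67, limma adjusted p = 0.0981) or to the median (0.70, 0.105). It was also lost without undifferentiated replicate 1 (0.81, limma adjusted p = 0.0889), undifferentiated replicate 3 (0.69, 0.0626), retinoic acid replicate 1 (0.95, 0.0576), retinoic acid replicate 2 (0.86, 0.0677) or retinoic acid replicate 3 (0.83, 0.0967). Without undifferentiated replicate 2 it was kept, at 1.14 (limma adjusted p = 0.00282).

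The other 3 BH3-only members did not pass the test. Bid, whose protein is cut by caspase-8 and so links the death receptors to the mitochondrion, measured 10.95, 10.96 and 10.83 in the undifferentiated samples and 10.50, 10.68 and 10.69 after retinoic acid. Its groups did not overlap and its samples were among the tightest of the array, with an SD within groups at the 5.13th percentile. The difference was -0.29 ± 0.15 (95% interval -0.63 to 0.05, limma adjusted p = 0.169), and it stayed below 0 in every alternative setting run, from -0.49 to -0.23.

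Bbc3 encodes PUMA, a BH3-only protein known as a strong p53 target. It measured 10.31, 9.99 and 9.95 in the undifferentiated samples and 10.99, 9.78 and 10.41 after retinoic acid. Retinoic acid replicate 2 was below all undifferentiated samples and the other 2 treated samples were above them. The difference was 0.30 ± 0.30 (95% interval -0.38 to 0.99, limma adjusted p = 0.485).

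Bad, whose protein is silenced by phosphorylation when growth factors are present, was the dimmest member. It measured 6.37, 6.03 and 6.42 in the undifferentiated samples and 7.68, 6.11 and 6.51 after retinoic acid. Its mean difference of 0.49 ± 0.37 (limma adjusted p = 0.364) came mostly from retinoic acid replicate 1, without which it was 0.04. The probe exceeded the background limit on 4 of 6 arrays of the undifferentiated group and 5 of 6 of the treated group, and its technical arrays differed more (SD 0.66) than those of the brightest probe of any other member.

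The probes of a gene did not always move the same way. In the fit over probes, 2 of the 18 member probes tested were called, against 25.5% of all 26587 probes tested. These were the probe of Pmaip1 and the brightest probe of Bcl2l11 (limma adjusted p = 0.00419 and 0.0342 over probes). Of the 6 members with several probes, 4 had probes of both signs.

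The second probe of Bcl2l11, assigned to the same transcript, measured 7.64, 7.89 and 7.44 in the undifferentiated samples and 7.29, 7.53 and 7.54 after retinoic acid. Its groups overlapped and its difference was -0.20 ± 0.17 (limma adjusted p = 0.446 over probes), opposite in sign to the brightest probe. The third probe of Bcl2l11 was higher in all treated samples, by 0.35 ± 0.14 (0.113), at levels above background on 2 of 6 undifferentiated and 5 of 6 treated arrays. The call of Bcl2l11 thus rests on 1 of its 3 probes. The third probe passed the filter on dim signals only through the treated group, where it was higher, so it is not counted as support for the call.

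For Mcl1 the brightest probe showed no separation, and the other probe did. That probe measured 12.94, 13.00 and 13.03 in the undifferentiated samples and 13.44, 13.38 and 13.37 after retinoic acid. The groups were far apart next to their spread, and the difference was 0.41 ± 0.14, which missed the threshold (limma adjusted p = 0.0653 over probes). Undifferentiated replicate 2, which had the highest value on the brightest probe (13.85), was in the middle of its group on this one.

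The 2 dimmer probes of Bcl2l1 differed by 1.18 ± 0.52 and 0.65 ± 0.34 (limma adjusted p = 0.143 and 0.210 over probes), both opposite in sign to the brightest probe of the gene. Retinoic acid replicate 3 was the highest sample on both, at 8.87 and 8.20, while retinoic acid replicate 2, at 6.73 and 6.83, lay within the undifferentiated range. The 2 dimmer probes of Bcl2 differed by 0.40 and 0.10, against -0.27 for the brightest. The second probe of Bak1 differed by -0.35 ± 0.22 (0.309). The second probe of Bad was too dim to test.

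**Figure D2:**
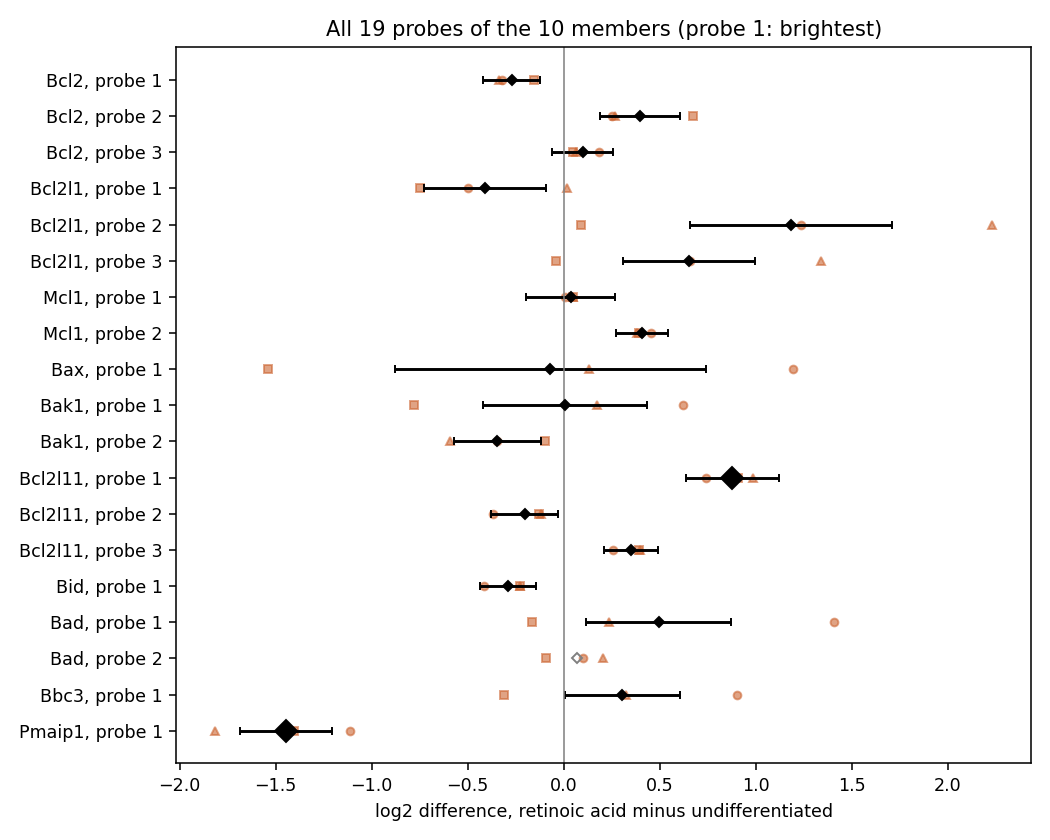
Log2 difference between retinoic acid and undifferentiated samples for each of the 19 probes of the 10 members, with black diamonds and bars for the difference ± SE (large diamonds: called in the fit over probes; open diamond: too dim to test) and orange points for each treated sample minus the undifferentiated mean (circle, square and triangle for replicates 1, 2 and 3). The only large diamonds are those of Bcl2l11 probe 1 at 0.88 and Pmaip1 at -1.44, and Bcl2, Bcl2l1, Bak1 and Bcl2l11 have probes on both sides of 0.

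The balance of survival and death members within a sample was followed in part, with 4 pairs. Each is the log2 signal of the death member minus that of the survival member, of which only the change between groups can be read. None of the pairs holds Bcl2l11, the only member called higher, or Bid or Bbc3, so the pairs do not give the balance of the whole family. The smallest p that an exact permutation test of 3 against 3 samples can give is 0.1. For Pmaip1 minus Mcl1 the value was -3.40, -4.15 and -2.95 in the undifferentiated samples and -4.62, -4.96 and -5.36 after retinoic acid. The groups did not overlap, and the change was -1.48 (exact two-sided permutation p = 0.1, adjusted p = 0.267 over 4 pairs). With the brightest probes and quantile normalization this is the change of Pmaip1, since Mcl1 contributed 0.04. The pair changed by -1.10 under either other scaling and by -1.67 with the mean of each gene's probes. It changed by -1.20 without undifferentiated replicate 3 and by -1.80 without undifferentiated replicate 2.

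In the other 3 pairs the groups overlapped. Bak1 minus Bcl2l1 measured -2.24, -2.25 and -2.09 in the undifferentiated samples and -1.08, -2.23 and -2.04 after retinoic acid, a change of 0.41 (exact permutation p = 0.2, adjusted p = 0.267) that rested on retinoic acid replicate 1. Without that sample the change was 0.06. Bad minus Bcl2l1 measured -5.02, -4.88 and -5.62 in the undifferentiated samples and -3.27, -4.59 and -4.95 after retinoic acid, a change of 0.90 (exact permutation p = 0.2, adjusted p = 0.267) that was 0.40 without retinoic acid replicate 1 and 1.41 with 1 in place of 50 added before log2. For Bax minus Bcl2, the values were 2.65, -0.07 and 1.84 in the undifferentiated samples and 2.99, 0.09 and 1.95 after retinoic acid. It changed by 0.20 (exact permutation p = 0.7, adjusted p = 0.7), against an SD of 1.40 and 1.47 within the groups. With samples left out in turn it ran from -0.57 (without undifferentiated replicate 2) to 0.99 (without retinoic acid replicate 2), and it was also below 0 without retinoic acid replicate 1 (-0.46). With the mean of each gene's probes in place of the brightest one, Bax minus Bcl2 changed by -0.15, Bak1 minus Bcl2l1 by -0.65 and Bad minus Bcl2l1 by -0.19, so that no direction can be given for any of these 3 pairs.

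**Figure D3:**
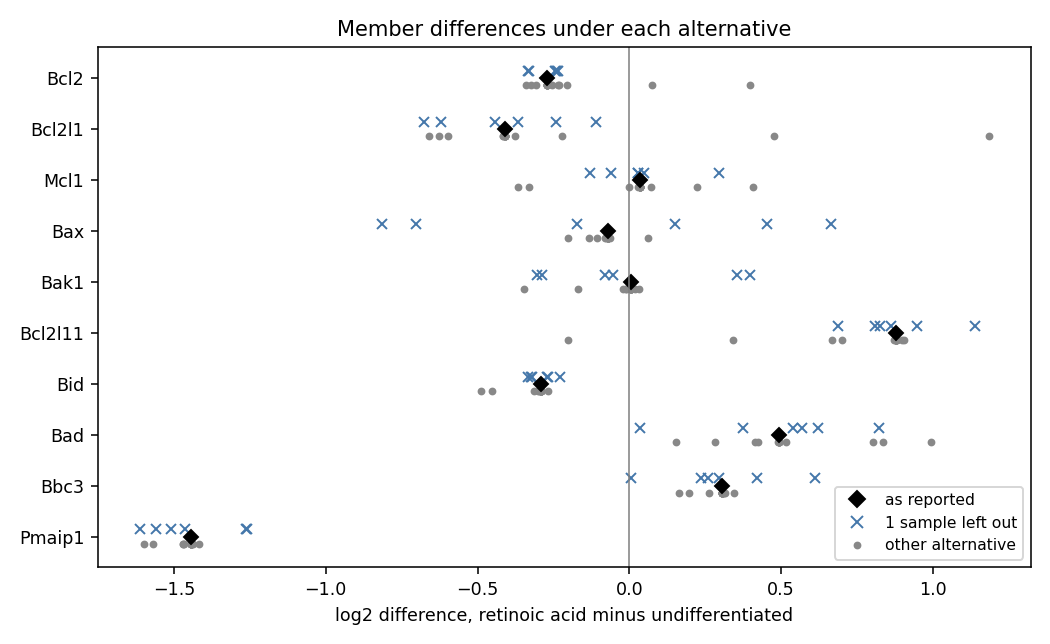
Log2 difference between retinoic acid and undifferentiated samples for each member as reported (black diamonds), with 1 of the 6 samples left out (blue crosses) and under the other alternative settings (grey points). Pmaip1 stays between -1.61 and -1.26, Bcl2l11 runs from -0.20 to 1.14, and the points of Bcl2, Bcl2l1, Mcl1, Bax and Bak1 lie on both sides of 0.

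Around the 10 members, 63 other apoptosis genes of the lists were on the array and 55 were tested. Of these 12 rose, 7 fell and 36 did not pass the test, with a median log2 difference of -0.07. The shares are close to those of all genes. Of the 19 called genes, 7 kept their call with each sample left out in turn: Bmf, Bok, Bcl2l14, Casp6, Parp1, Tradd and Casp8. With arrays scaled to the 75th percentile or to the median, 6 of the 19 lost their call in at least 1 of the 2 settings, of which 5 had risen.

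The closest relatives of the death members were Bmf, Bok, Bik and Hrk, and the 3 of them that could be tested all rose. Over all genes tested 18.7% were called higher, and this short list was not tested as a whole. Hrk was too dim. Bmf, a BH3-only gene whose protein is tied to the cytoskeleton, rose from 10.10 ± 0.42 to 11.24 ± 0.25 (SD, n = 3), by 1.14 ± 0.24 (limma adjusted p = 0.00946), but its second brightest probe differed by -0.0048 and the mean of its 3 probes by 0.43 (0.0412). Bok, a pore-forming relative of Bax and Bak1, rose from 9.10 ± 0.21 to 9.83 ± 0.05, by 0.74 ± 0.16 (0.0105). Bik, a BH3-only gene of the endoplasmic reticulum, rose from 7.56 ± 0.18 to 8.20 ± 0.27, by 0.65 ± 0.19 (0.0335), and lost its call without undifferentiated replicate 2 (0.57, 0.0717), undifferentiated replicate 3 (0.62, 0.0706), retinoic acid replicate 1 (0.72, 0.0651) or retinoic acid replicate 3 (0.49, 0.135).

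Promoter windows of 300 bases, from 250 bases before to 50 bases after an annotated start, were taken from RefSeq (GRCm38.p6) for the members. They were found for 9 of 10 members, with 15 windows in all because some genes have several starts; Pmaip1 is not among them. The GC box GGGCGG, searched on both strands, was in 10 of the 15 windows, against 35.7% of all 32851 windows. The nuclear receptor half-site AGGTCA was in 1 (16.3% of all), the E-box CACGTG in 2 (7.15%), the forkhead core TGTTTAC in 2 (3.65%), TATAAA in 0 (13.6%) and the p53 half-site in 1, that of Bax (8.36%). A match describes letters only. The windows of Bcl2l11, of Bok and of the most upstream start of Bmf are shown because these death genes were each called higher, with GC boxes, forkhead cores and half-sites in capitals, 5′ to 3′ on the strand of the gene. Bcl2l11 has windows at chr2:128125788-128126087 and chr2:128127325-128127624 on the plus strand, Bok at chr1:93685325-93685624 on the plus strand, and Bmf at chr2:118549637-118549936 on the minus strand.
Bcl2l11, window 1: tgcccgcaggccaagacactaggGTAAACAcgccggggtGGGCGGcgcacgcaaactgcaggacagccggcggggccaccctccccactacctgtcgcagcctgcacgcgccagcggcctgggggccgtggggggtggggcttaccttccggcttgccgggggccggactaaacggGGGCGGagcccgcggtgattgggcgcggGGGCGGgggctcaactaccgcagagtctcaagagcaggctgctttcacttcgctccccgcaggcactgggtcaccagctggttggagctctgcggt
Bcl2l11, window 2: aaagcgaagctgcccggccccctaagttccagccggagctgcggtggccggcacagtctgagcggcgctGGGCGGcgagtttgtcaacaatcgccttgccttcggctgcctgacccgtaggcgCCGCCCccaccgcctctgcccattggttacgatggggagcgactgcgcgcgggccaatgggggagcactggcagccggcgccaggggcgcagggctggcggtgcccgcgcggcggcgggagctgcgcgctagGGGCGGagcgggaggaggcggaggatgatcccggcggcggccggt
Bok: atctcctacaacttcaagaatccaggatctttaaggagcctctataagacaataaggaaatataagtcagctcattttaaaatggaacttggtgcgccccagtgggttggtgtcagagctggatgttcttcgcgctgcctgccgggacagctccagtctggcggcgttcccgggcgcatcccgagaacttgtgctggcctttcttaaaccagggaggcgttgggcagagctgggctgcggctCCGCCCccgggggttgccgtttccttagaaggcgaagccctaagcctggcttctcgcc
Bmf: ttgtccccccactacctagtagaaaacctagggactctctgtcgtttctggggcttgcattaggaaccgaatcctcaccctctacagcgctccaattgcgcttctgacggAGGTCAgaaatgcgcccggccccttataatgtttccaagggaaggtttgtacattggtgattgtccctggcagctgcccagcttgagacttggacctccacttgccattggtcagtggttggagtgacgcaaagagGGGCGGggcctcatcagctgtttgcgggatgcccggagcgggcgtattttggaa
Each window of Bcl2l11 holds 3 GC boxes and the first also holds 1 forkhead core. The Bok window holds 1 GC box, and the Bmf window 1 GC box and 1 nuclear receptor half-site. The other 2 windows of Bmf hold neither of these, and 1 of them holds a p53 half-site.

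The other survival relatives that could be tested, Bcl2l2 and Bcl2l10, differed by 0.21 and -0.28 and did not pass the test. Among 7 distant relatives, Bcl2l14 fell by 1.23 ± 0.17 on the log2 scale (limma adjusted p = 0.00115), and its second probe fell too, at -0.90. Bnip3, a mitochondrial gene known for its induction by low oxygen and its role in mitophagy, fell by 0.998 ± 0.28 on the log2 scale (0.0279). Bcl2l12 rose by 0.67 ± 0.19 (0.0286). Bnip3 lost its call without undifferentiated replicate 1 (-0.97, 0.0838), undifferentiated replicate 3 (-0.73, 0.0527), retinoic acid replicate 1 (-0.94, 0.0899) or retinoic acid replicate 3 (-0.98, 0.0885). Bcl2l12 was not called under either other scaling (0.54 to 0.57) or with any sample left out other than undifferentiated replicate 2 (0.54 to 0.71, limma adjusted p = 0.0654 to 0.0932).

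Downstream of the mitochondrion, 8 of 10 genes of the release step and the apoptosome did not pass the test. Apaf1, the scaffold that cytochrome c assembles into the apoptosome, rose by 1.16 ± 0.27 (limma adjusted p = 0.0140), and its second probe rose by 0.77. The mean of its 3 probes rose by 0.62 (0.0173). Without undifferentiated replicate 1 it missed the threshold (1.002, 0.0545). Htra2, a protease released with cytochrome c, rose by 0.68 ± 0.17 (0.0205), but was not called under either other scaling (0.42 to 0.45) or without undifferentiated replicate 1 (0.60, 0.0737), retinoic acid replicate 1 (0.72, 0.0556), retinoic acid replicate 2 (0.59, 0.0640) or retinoic acid replicate 3 (0.72, 0.0605). Of 6 executioner caspases and substrates, Casp6 rose from 9.92 ± 0.26 to 11.47 ± 0.28, by 1.55 ± 0.21 (0.00109), and kept its call in every setting run. Casp6 has 1 probe, so the settings with other probes could not change its difference. Parp1, a DNA repair enzyme that caspases cleave, fell by 0.92 ± 0.21 on the log2 scale (0.0122), and its second probe fell by 1.03.

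In the death receptor branch, which Bid joins to the mitochondrion, 3 of 8 genes rose and none fell. Over all genes tested 18.7% were called higher and 13.6% lower. The adaptor Tradd rose by 0.87 ± 0.17 (limma adjusted p = 0.00601), the initiator Casp8 by 0.84 ± 0.18 (0.0101) and the adaptor Fadd by 0.69 ± 0.20 (0.0301), with Fadd's second probe at 0.79. Fadd was not called under either other scaling (0.59 to 0.63) or with any sample left out other than undifferentiated replicate 2 (0.57 to 0.72, limma adjusted p = 0.0626 to 0.103). Of 5 inhibitor of apoptosis genes tested, Birc3 fell by 0.70 ± 0.15 on the log2 scale (0.00999), and missed the threshold without retinoic acid replicate 3 (-0.65, 0.0565). Its second probe, too dim to test, differed by -0.15, and the mean of its probes by -0.43 (0.0232).

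**Figure D4:**
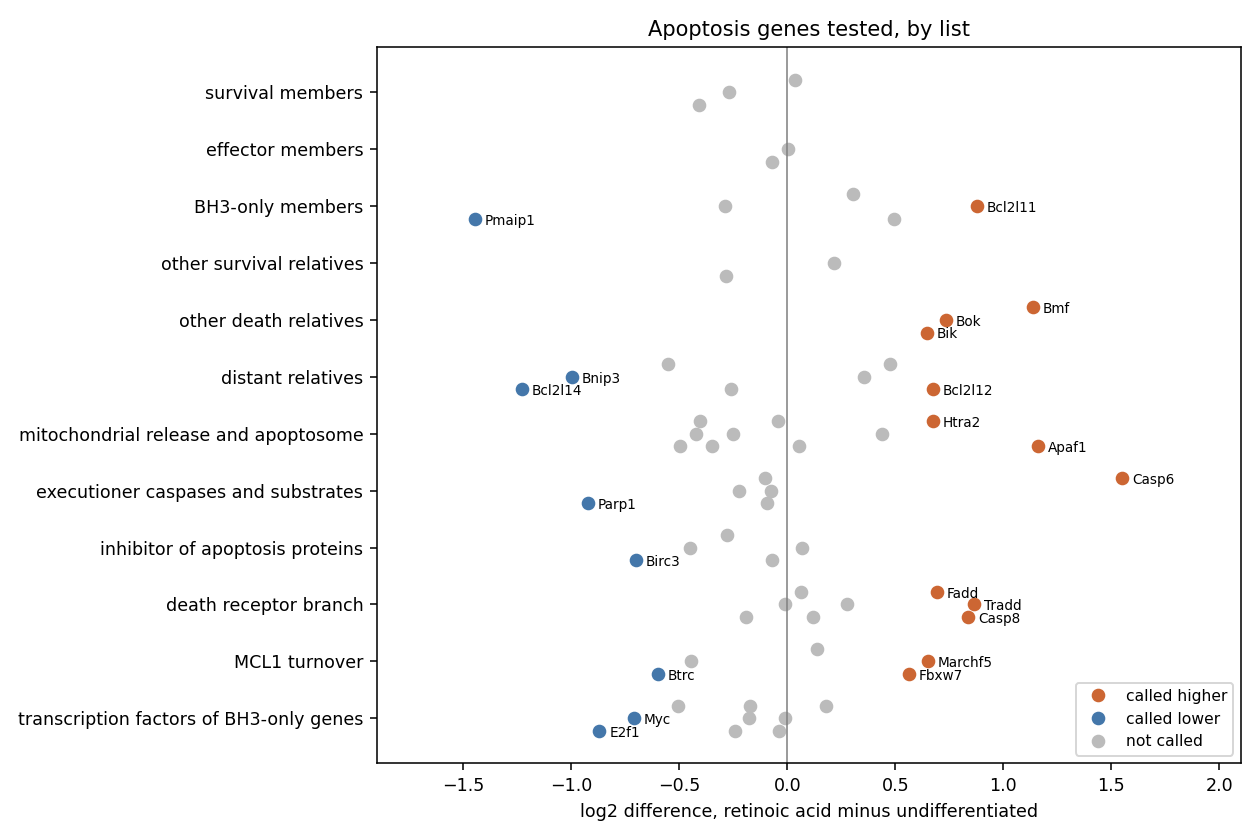
Log2 difference between retinoic acid and undifferentiated samples for each apoptosis gene tested, 1 row per list, with the genes called higher in orange, those called lower in blue and the rest in grey. Bcl2l11 and Pmaip1 are the only called members, and the 3 other death relatives Bmf, Bok and Bik lie at 0.65 to 1.14.

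Genes that act on the members were followed too. Of 5 genes of MCL1 protein turnover, the ubiquitin ligases Marchf5 and Fbxw7 rose by 0.65 ± 0.17 and 0.56 ± 0.18 (limma adjusted p = 0.0201 and 0.0439) and Btrc fell by 0.60 ± 0.19 on the log2 scale (0.0462). These calls were weak: of the 23 alternative settings, 7 ended that of Marchf5, 15 that of Fbxw7 and 16 that of Btrc, both other scalings among those for Marchf5 (0.26 to 0.29) and Fbxw7 (0.39 to 0.43). Among the samples left out in turn, the call of Marchf5 was lost without undifferentiated replicate 1 or any treated sample (0.54 to 0.69, limma adjusted p = 0.0549 to 0.0746), that of Fbxw7 without undifferentiated replicates 1 or 3 or retinoic acid replicates 1 or 3 (0.42 to 0.62, 0.0881 to 0.161), and that of Btrc without any sample other than undifferentiated replicate 2 (-0.70 to -0.49, 0.0699 to 0.163). Of 9 transcription factors of BH3-only genes, E2f1 fell by 0.87 ± 0.21 on the log2 scale (0.0141) and Myc by 0.71 ± 0.23 (0.0469), the latter losing its call in 13 of 23 settings, among them each sample left out other than undifferentiated replicate 3 (-0.83 to -0.50, 0.0558 to 0.130). E2f1 missed the threshold without retinoic acid replicate 3 (-0.87, 0.0542), and its second probe differed by -0.21. The second probe of Myc differed by -0.32 and that of Fbxw7 by 0.03, neither of them called, while that of Marchf5 was called higher at 0.68. Trp53, which encodes p53, differed by -0.04 ± 0.22 (0.917), while its known target genes among the members, Pmaip1, Bbc3 and Bax, differed by -1.44, 0.30 and -0.07.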

How the data were processed

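The deposited scanner tables hold 1 net mean intensity per spot on a linear scale, from which the authors' software had taken the local background, per the file headers. How it was taken off is not stated in those headers. Tools named by the submitters' processing notes are limma and R 2.15.0. The header of undifferentiated replicate 2, technical array 2, names the other technical array of that sample, although the values differ. Here the intensities of the 41174 probes were quantile-normalized over 12 arrays, 50 was added and log2 was taken; the deposited values themselves are not log2 values. The authors' processed intensity table served as an alternative; its columns have a median of 56.9 and correlate at above 0.999 with these values. Probes were named through the RefSeq gene table (GRCm38.p6), and the probe with the highest mean stood for a gene. A gene was tested when its signal exceeded that of 95% of an array's 27 negative controls on at least 4 of 6 arrays of either group. Technical arrays were averaged and groups compared in R 4.3.3 with lmFit and eBayes of limma 3.58.1 as a two-sided test. Benjamini-Hochberg adjustment ran over the genes tested, or in the fit over probes over the probes tested. The fit was also run on simulated data with independent noise and few changed genes. That setting is unlike these data, so it is not used as support here. Plots were made in matplotlib 3.10.9 under Python 3.11.15.

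The genes named are every member, up to 3 called genes in each direction of each apoptosis list, those with the largest differences whose groups did not overlap, and Trp53. The members, lists and rules were chosen with earlier results of these data known, so no list was tested. The small number of arrays limits the precision. The alternatives were other scalings, filters, probes, added values, technical arrays, block terms and variance models, the authors' values, a stricter threshold, omission of the array whose header is in doubt, and each sample left out in turn.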

Additional observations from a re-analysis of the deposited data

How the results depend on the processing

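Pmaip1 was called lower in all 23 alternatives, and none of the 8 members without a call gained one. For members with 1 probe, Pmaip1 among them, the settings with other probes reuse the same values. The number of members called higher went from 1 to 0 with scaling to the 75th percentile, scaling to the median, the mean of a gene's probes, the second brightest probe, or an adjusted p under 0.01, and ran from 0 to 1 when samples were left out in turn. With the second brightest probe, Bcl2l11 differed by -0.20 (limma adjusted p = 0.437) and Bmf by -0.0048 (0.986). With the mean of a gene's probes Bcl2l11 differed by 0.34 (0.137), Bak1 minus Bcl2l1 by -0.65 and Bad minus Bcl2l1 by -0.19. Over all genes, 1784 were called higher and 1114 lower at an adjusted p under 0.01, against 2872 and 2083 at 0.05, and with samples left out in turn 2007 to 3148 were called higher and 1228 to 2108 lower. Of all calls 58.0% were higher, against 48.0% with scaling to the 75th percentile and 51.4% with scaling to the median. Among members without a call, the sign differed from the reported one in 2 alternatives for Bcl2, 2 for Bcl2l1, 4 for Mcl1, 4 for Bax and 9 for Bak1. The causes were not tested.

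Over all genes tested, replicate numbers paired the samples weakly if at all. Deviations of same-numbered samples correlated at -0.06, 0.22 and 0.07, and not every sample correlated best with its own number. Replicate 2 did so in both groups, and it was low in both groups in 33 genes. Pairing by number in single genes was not tested. With the replicate block Bcl2l11 kept its difference of 0.88 (limma adjusted p = 0.0327), Pmaip1 was at -1.44 (0.0132), and 2849 genes were called higher and 2040 lower. For Bcl2l1 the limma adjusted p moved from 0.372 to 0.0978 at the same difference of -0.41, without a call. Signal over background limits Bad, whose second probe could not be tested, and the dimmer probes of Bcl2 and Bcl2l11.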

Other observations

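Replicate 2 stood below both other samples by at least 1 log2 unit in both groups in 33 genes, and above them in 3; for replicate 1 these counts were 0 and 1, and for replicate 3 they were 0 and 6. The genes with the largest gaps were Rn18s, the splicing factor gene U2af2, the mitochondrial tRNA synthetase gene Lars2, Fkbp8, Bax and Cdc34. Fkbp8, whose protein is known to bind BCL2 and BCL-XL at the mitochondrion, measured 9.40, 7.72 and 9.87 in the undifferentiated samples and 9.05, 7.24 and 9.48 after retinoic acid. U2af2 measured 9.82, 7.99 and 10.77 in the undifferentiated samples and 9.74, 7.17 and 9.82 after retinoic acid. These genes were chosen after their values were seen, and the cause of the pattern was not tested.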
